A study of Rattus norvegicus with 12 samples.

Results

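The contractile apparatus of smooth muscle was followed in the rat ovary through 10 genes, Acta2, Actg2, Myh11, Tagln, Cnn1, Des, Mylk, Myl9, Lmod1 and Smtn. The genes were chosen by name as usual marker genes of contractile smooth muscle, with earlier results of these data known. All 10 were found among the 19730 genes of the deposited table. They were all among the 13430 genes tested, which had a mean FPKM of 1 or more over the 12 libraries. FPKM, the number of fragments per kilobase of gene scaled to the mapped fragments of the library, is a level corrected for gene length and for library size.

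The libraries were made from whole ovaries of wild type Sprague Dawley rats at 15 weeks of age, with 4 rats in each of 3 groups. The Control rats were untreated and, per the study's methods, ate standard pellets. The PCOS rats, a model of polycystic ovary syndrome, received letrozole, an inhibitor of the aromatase that turns androgens into estrogens, for 30 days together with a high-fat diet, and were kept as models only if vaginal smears showed them staying in metestrus and diestrus. The PCOS-MV rats received the same letrozole and diet and then mogroside V, a sweet triterpene glycoside of monk fruit, for 30 days. Per the study's methods, all rats were killed at the end of the mogroside V period. The PCOS ovaries were therefore taken about 30 days after letrozole had ended. The cycle stage of each ovary at removal was not given in the sources used here.

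Smooth muscle cells shorten when calcium and calmodulin switch on myosin light chain kinase, which phosphorylates the regulatory light chain and lets smooth muscle myosin pull on actin filaments. Myosin phosphatase reverses the step, and calponin and transgelin sit on the actin filaments. In the ovary such cells lie in the walls of arteries and in the outer layer of follicles, the theca externa, and are known to contract around ovulation. Most of their contractile genes are under the control of serum response factor, which binds a short DNA element called the CArG box, and of its partner myocardin.

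The promoters of the actin Acta2, of the kinase gene Mylk and of Smtn are shown because these genes gave the 3 kinds of result described further on. Acta2 was not called, Mylk was called higher in PCOS and Smtn was called lower in PCOS. A link between the promoters and these results was not tested. The sequences are the 150 bases before the annotated start in RefSeq (rat assembly GRCr8), written 5′ to 3′ on the strand of the gene, at chr1:241172504-241172653 (minus strand) for Acta2, chr11:79498575-79498724 (minus strand) for Mylk and chr14:82644515-82644664 (minus strand) for Smtn. Capitals mark elements that match the CArG box except for 1 G or C among its 6 central bases.
Acta2: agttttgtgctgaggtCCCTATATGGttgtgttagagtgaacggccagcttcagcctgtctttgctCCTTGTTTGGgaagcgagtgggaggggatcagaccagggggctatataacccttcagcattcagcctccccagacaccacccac
Mylk: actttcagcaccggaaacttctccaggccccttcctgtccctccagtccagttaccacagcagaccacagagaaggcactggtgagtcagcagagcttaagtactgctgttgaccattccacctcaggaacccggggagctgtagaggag
Smtn: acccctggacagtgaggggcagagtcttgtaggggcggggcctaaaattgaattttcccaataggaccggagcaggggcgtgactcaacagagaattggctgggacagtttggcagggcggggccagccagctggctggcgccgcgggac

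The element was searched on both strands in windows from 250 bases before to 50 bases after the start. The RefSeq promoter table held 6 of the 10 genes (Acta2, Actg2, Cnn1, Des, Mylk and Smtn), and Myh11, Tagln, Myl9 and Lmod1 were not in it. None of the 6 windows held an exact CArG box, which was present in 1.64% of all 27457 windows. The element with 1 G or C in its centre was present in 7.95% of all windows and in 1 of the 6, that of Acta2. Acta2 held it at 2 places, at bases 134 to 125 and 84 to 75 before the start, and 0.524% of all windows held it at 2 or more places. A match describes these letters only and was not measured as a binding site. Each gene had 1 window, so elements farther upstream, in introns or at other starts of the gene were not searched. A missing match therefore says nothing about control of the gene by the CArG box.

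The FPKM values of the libraries summed to between 339830 and 373758. Read depth was not given with the FPKM values, but the spacing of the lowest values put the relative depth of the libraries between 0.917 and 1.12 times that of Control 1. Libraries of one group correlated, over log2(FPKM + 1) of all genes, at 0.954 to 0.987 in Control, 0.986 to 0.989 in PCOS and 0.977 to 0.989 in PCOS-MV. The library of Control 3 stood farthest from its group. Its summed FPKM of the 6 oviduct and ciliated epithelium markers found was 136, against 11 to 17.7 in the other 3 controls. Epcam was at 32.3 against 1.20 to 2.90, Krt8 at 44.7 against 3.58 to 8.03 and Pax8 at 10.7 against 0.457 to 0.868. The sum was also 28.5 to 100 FPKM in PCOS, and 16.8 to 32.4 FPKM in PCOS-MV. It includes Cdh1, at 37.9 FPKM in Control 3 and 23.3 to 88.4 FPKM in PCOS, whereas Epcam was at 1.81 to 2.52 FPKM in PCOS. Results that rest on Control 3 are therefore given with and without it.

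Most of the 10 genes did not pass the test in any comparison, and the largest fitted fold change between PCOS and Control was that of Mylk, 1.93-fold. Summed over the 10 genes, the level was 744 ± 307 FPKM in Control, 759 ± 73.0 FPKM in PCOS and 758 ± 208 FPKM in PCOS-MV (mean ± SD, n = 4 rats each). Without Control 3, the sum in Control was 598 ± 116 FPKM (n = 3). In PCOS against Control, 2 genes rose (Mylk and Lmod1), 1 fell (Smtn) and 7 did not pass the test, a limma fit of log2(FPKM + 1) over all genes tested at an adjusted p under 0.05. Of all genes tested 27.4% were called in this comparison, and the 3 of 10 was near that share. In PCOS-MV against PCOS, Smtn rose, Lmod1 fell and 8 genes did not pass, against 25.7% of all genes called. In PCOS-MV against Control none of the 10 was called by limma, none had an unadjusted p under 0.05, and 0.00745% of all genes were called. Because the libraries are of whole ovary, a lower share of smooth muscle cells and less RNA per cell cannot be told apart. The first and second comparisons share the PCOS libraries, so their values for a gene are not independent.

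The median log2 fold change of the 10 genes was -0.05 in PCOS against Control, beside -0.03 over all genes tested. It was -0.01 in PCOS-MV against PCOS, beside 0.03 over all genes, and -0.01 in PCOS-MV against Control, beside 0.00 over all genes. Every fold change was computed as a difference of log2(FPKM + 1), which understates the change of low genes. The precision of the 10 genes differed widely, with standard errors of the log2 fold change from 0.10 to 0.45 in PCOS against Control, beside a median of 0.12 over all genes. A missing call for the least precise of them therefore left wide intervals.

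**Figure D1:**
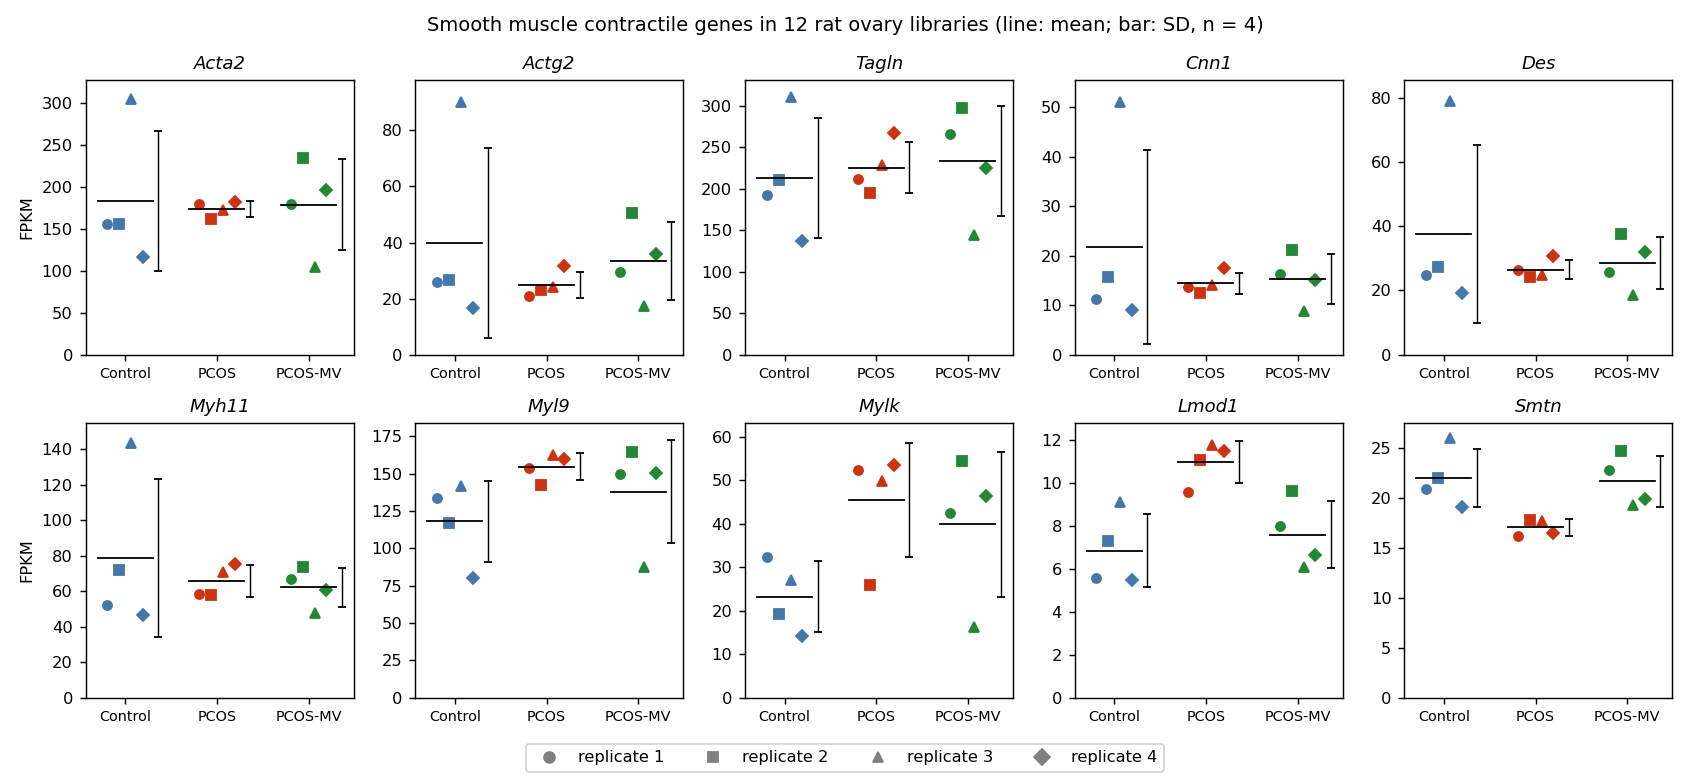
Level of each of the 10 contractile genes in FPKM (vertical axes, starting at 0) in the 4 libraries of Control, PCOS and PCOS-MV, with the marker shape giving the replicate, a line for the mean and a bar for the SD. Control 3 stands above the other controls for Acta2, Actg2, Cnn1, Des and Myh11, Lmod1 is higher and Smtn lower in PCOS than in either other group's mean, and Control 4 and PCOS-MV 3 are the lowest of their groups for all 10 genes.

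Levels per length spanned a wide range. In the PCOS group, which had the smallest spread, Tagln was highest at 225 ± 31.0 FPKM, followed by Acta2 at 174 ± 9.20, Myl9 at 155 ± 8.83, Myh11 at 65.7 ± 8.87 and Mylk at 45.4 ± 13.1 FPKM. Des at 26.5 ± 2.91 FPKM, Actg2 at 24.9 ± 4.69, Smtn at 17.1 ± 0.844, Cnn1 at 14.4 ± 2.17 and Lmod1 at 11 ± 0.984 FPKM were lower. The ranges over the 4 PCOS rats overlapped between the neighbours Acta2 and Myl9, Mylk and Des, Des and Actg2, and Smtn and Cnn1. Within each PCOS library, however, Acta2 was above Myl9 and Mylk above Des. Tagln, Acta2, Myl9 and Myh11 held the first 4 places and Cnn1 and Lmod1 the last 2 in all 3 groups, whereas Mylk stood at place 7 in Control and at place 5 in PCOS and PCOS-MV.

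Acta2 encodes the smooth muscle alpha actin of the thin filament, and lies on the minus strand of chromosome 1 (252537615 to 252550394). Coordinates of genes are as in the deposited table, whose genome build is not named in the sources used here. Its level was 156, 156, 305 and 117 FPKM in Control 1 to 4, 179, 162, 173 and 183 FPKM in PCOS 1 to 4, and 180, 235, 105 and 196 FPKM in PCOS-MV 1 to 4. The groups overlapped, and all PCOS values lay inside the range of the controls. The log2 fold change was 0.02 in PCOS against Control (95% confidence interval -0.56 to 0.60, adjusted p = 0.963), -0.02 in PCOS-MV against PCOS and 0.00 in PCOS-MV against Control. Without Control 3, every PCOS value lay above the remaining controls. The log2 fold change of PCOS against Control was then 0.30 (adjusted p = 0.0997), again not called. Reads that fit several of the near-identical actin genes may have been assigned among them in a way that the FPKM values do not show, so the actin levels carry that uncertainty.

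Actg2, the smooth muscle gamma actin (chromosome 4, 115215060 to 115239723, minus strand), was at 25.8, 26.7, 90.1 and 16.8 FPKM in the controls, 20.9, 23.0, 24.1 and 31.7 FPKM in PCOS and 29.5, 50.6, 17.3 and 35.9 FPKM in PCOS-MV. The library of Control 3 was 3.37 times the next control, and the other 11 libraries lay between 16.8 and 50.6 FPKM. The log2 fold change was -0.37 in PCOS against Control (95% interval -1.37 to 0.63, adjusted p = 0.570) and 0.33 in PCOS-MV against PCOS (95% interval -0.33 to 0.98, adjusted p = 0.438). Without Control 3, the difference of PCOS from Control was 0.12 on the log2 scale, the opposite sign, and it was again not called.

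Tagln, the actin-binding transgelin (chromosome 8, 50222896 to 50231357, minus strand), was at 192, 211, 310 and 137 FPKM in the controls, 212, 194, 229 and 267 FPKM in PCOS and 265, 298, 144 and 225 FPKM in PCOS-MV. The groups overlapped, with log2 fold changes of 0.14 in PCOS against Control (adjusted p = 0.690) and 0.01 in PCOS-MV against PCOS (adjusted p = 0.985). Without Control 3 the first was 0.34 (adjusted p = 0.174). Tagln shares part of its span with Sidt2 on the same strand (50230339 to 50246656, 32.9 FPKM on average), so some reads could belong to either gene. Cnn1, the calponin of the smooth muscle thin filament (chromosome 8, 23113048 to 23121761, plus strand), was at 11.2, 15.6, 51.0 and 9.08 FPKM in the controls, 13.6, 12.4, 14.1 and 17.4 FPKM in PCOS and 16.3, 21.2, 8.83 and 15.0 FPKM in PCOS-MV. As for Actg2, Control 3 stood alone, at 3.26 times the next control.

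Des encodes desmin, the intermediate filament of muscle cells (chromosome 9, 82556573 to 82564294, plus strand). It was at 24.9, 27.2, 78.8 and 19.1 FPKM in the controls, 26.4, 24.0, 24.9 and 30.6 FPKM in PCOS and 25.7, 37.4, 18.7 and 31.9 FPKM in PCOS-MV. Control 3 was 2.90 times the next control, and the remaining values of the 3 groups overlapped. For Cnn1 the log2 fold change was -0.24 in PCOS against Control (95% interval -1.27 to 0.79) and for Des it was -0.26 (95% interval -1.12 to 0.59), and neither was called. Without Control 3 they were 0.26 for Cnn1 and 0.16 for Des, the opposite sign, and again not called. In PCOS-MV against PCOS the values were 0.04 for Cnn1 and 0.06 for Des, also not called.

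The thick filament and its switch were read through Myh11, Myl9 and Mylk. Myh11, the smooth muscle myosin heavy chain (chromosome 10, 764421 to 859184, plus strand), was at 52.4, 72.2, 143 and 46.8 FPKM in the controls, 58.6, 57.8, 70.9 and 75.5 FPKM in PCOS and 66.9, 73.5, 47.6 and 60.5 FPKM in PCOS-MV. All PCOS values lay within the control range, and the log2 fold changes were -0.12 in PCOS against Control (95% interval -0.84 to 0.60) and -0.09 in PCOS-MV against PCOS (95% interval -0.42 to 0.25), neither of them called. Without Control 3 the first was 0.21, the opposite sign, and again not called.

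Myl9, the regulatory light chain that the kinase phosphorylates (chromosome 3, 152857592 to 152863960, plus strand), was at 134, 117, 142 and 80.4 FPKM in the controls, 154, 143, 162 and 160 FPKM in PCOS and 150, 164, 87.3 and 150 FPKM in PCOS-MV. Every PCOS value lay above every control value, the lowest PCOS rat at 143 and the highest control at 142 FPKM. The log2 fold change was 0.42 ± 0.17 (SE), and its adjusted p of 0.0965 did not pass the threshold. Without Control 3 the adjusted p was 0.0476. The exact two-sided permutation test gave p = 0.0286, the smallest that 4 against 4 allows. PCOS-MV overlapped both other groups, at a log2 fold change of -0.20 from PCOS (adjusted p = 0.457).

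Mylk, the myosin light chain kinase gene (chromosome 11, 69013050 to 69223158, minus strand), was at 32.4, 19.2, 27.1 and 14.2 FPKM in the controls, 52.4, 26.0, 49.9 and 53.5 FPKM in PCOS and 42.4, 54.5, 16.2 and 46.3 FPKM in PCOS-MV. In each treated group 3 of 4 rats lay above all controls and 1 rat, PCOS 2 or PCOS-MV 3, lay among them. Mylk rose in PCOS against Control by a log2 fold change of 0.95 ± 0.30 (SE, adjusted p = 0.0448, 1.93-fold), with an exact permutation p of 0.0857. The call was kept in 3 of 8 fits that left out 1 rat and was lost without Control 2, Control 4, PCOS 1, PCOS 3 or PCOS 4 (adjusted p from 0.0148 to 0.114 over the 8). It was also lost with no filter on low values (adjusted p = 0.0806) and with all 12 libraries in 1 model (adjusted p = 0.0826). PCOS-MV against PCOS gave -0.26 (95% interval -1.13 to 0.61) and PCOS-MV against Control gave 0.69 (95% interval -0.21 to 1.59), and neither was called. Mylk also encodes a long nonmuscle form of the kinase and the kinase-free protein telokin, and the gene-level FPKM does not separate them.

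Lmod1, leiomodin 1, which starts new actin filaments in smooth muscle (chromosome 13, 52147555 to 52190228, plus strand), was the lowest of the 10 genes. It was at 5.57, 7.29, 9.12 and 5.48 FPKM in the controls, 9.59, 11.1, 11.8 and 11.5 FPKM in PCOS and 8.03, 9.64, 6.09 and 6.68 FPKM in PCOS-MV. The PCOS values lay above all controls, and 3 of 4 PCOS-MV values lay below all PCOS values. Lmod1 rose in PCOS against Control by 0.63 ± 0.15 (SE, adjusted p = 0.0141, exact permutation p = 0.0286), and the call was kept in all 8 fits that left out 1 rat. In PCOS-MV against PCOS its log2 fold change was -0.49 ± 0.13 (SE, adjusted p = 0.0272, exact permutation p = 0.0571). This second call was kept in 3 of 8 such fits, and was lost without PCOS 2, PCOS 3, PCOS 4, PCOS-MV 3 or PCOS-MV 4. It was also lost with the replicate numbers as a block, at an adjusted p of 0.0571.

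Smtn, smoothelin, an actin-binding protein of fully contractile smooth muscle (chromosome 14, 83755142 to 83776863, minus strand), moved the other way. It was at 20.9, 22, 26.0 and 19.2 FPKM in the controls, 16.2, 17.8, 17.7 and 16.5 FPKM in PCOS and 22.8, 24.7, 19.3 and 19.9 FPKM in PCOS-MV. The PCOS values lay below all values of both other groups. Smtn fell in PCOS against Control, with a log2 fold change of -0.34 ± 0.10 (SE, adjusted p = 0.0282), and rose by 0.32 ± 0.09 in PCOS-MV against PCOS (SE, adjusted p = 0.0306), each with an exact permutation p of 0.0286. The calls were kept in 4 of 8 and 2 of 8 fits that left out 1 rat, with adjusted p from 0.0188 to 0.0765 and from 0.0197 to 0.0821. The first was lost without Control 2, PCOS 1, PCOS 2 or PCOS 4, and the second without any 1 of the PCOS rats, PCOS-MV 1 or PCOS-MV 2.

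Counted over the 10 genes, PCOS and Control did not overlap for 3 (Myl9, Lmod1 and Smtn), against 31.0% of all genes tested, and PCOS-MV and PCOS did not overlap for 1 (Smtn), against 30.0%. No gene of the 10 separated PCOS-MV from Control, against 5.10% of all genes. Without Control 3, PCOS against Control gave 3 genes that rose (Myl9, Mylk and Lmod1) and 1 that fell (Smtn), against 29.2% of all genes called in that fit, and the median log2 fold change of the 10 genes was 0.28, beside -0.03 over all genes tested.

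**Figure D2:**
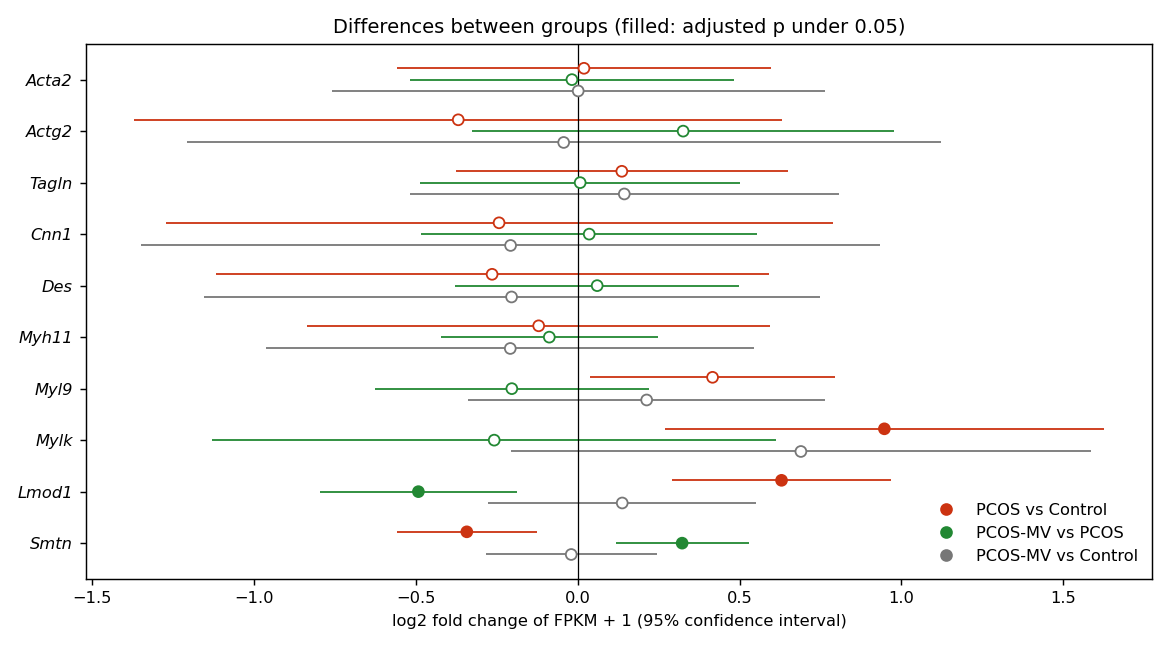
Log2 fold change of FPKM + 1 (horizontal axis) for each gene (rows) in PCOS against Control, PCOS-MV against PCOS and PCOS-MV against Control, with 95% confidence intervals of the limma fit and filled points for an adjusted p under 0.05. Filled points are Mylk, Lmod1 and Smtn in the first comparison and Lmod1 and Smtn in the second, while the intervals of Actg2 and Cnn1 against Control are the widest in the plot.

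As a set, the 10 genes varied between rats of one group more than the median gene did, though not each of them in each group. The median SD of log2(FPKM + 1) over the 10 genes was 0.55 in Control, 0.17 in PCOS and 0.44 in PCOS-MV, beside 0.18, 0.13 and 0.17 over all genes tested. The Control value includes Control 3 and was not computed without it. For the summed level, the SD in Control was 307 FPKM with Control 3 and 116 FPKM without it, beside 208 FPKM in PCOS-MV. Smtn (0.07 in PCOS and 0.16 in PCOS-MV) lay below the median of all genes in both treated groups, and Acta2, Myl9 and Lmod1 lay below it in PCOS at 0.08, 0.08 and 0.12. As a description, the Pearson correlation between 2 of the genes over the 12 libraries, after removal of the group means, had a median of 0.85 over the 45 pairs and ran from 0.42 to 0.98. Without Control 3 the median was 0.83. The points of each correlation share their library. The median over the 9 pairs of a gene was lowest for Mylk (0.55) and highest for Actg2 (0.91), an order that rests on Control 3. Without it Mylk was at 0.78 and Actg2 at 0.87, with Smtn lowest at 0.67 and Acta2 and Cnn1 highest at 0.91.

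A few libraries carried most of that spread. Control 3 held the highest value of all 12 libraries for 7 of the 10 genes. It lay above 1.5 times the highest other control for 5 of them (Actg2, Cnn1, Des, Myh11 and Acta2), which was the case for 5.65% of all genes tested. Control 4 was the lowest control for all 10 genes, against 17.9% of all genes, and PCOS-MV 3 was the lowest of its group for all 10, against 33.8%. The summed level of the 10 genes was 1182 FPKM in Control 3, 464 FPKM in Control 4 and 470 FPKM in PCOS-MV 3, and lay between 655 and 969 FPKM in the other 9 libraries. The epithelial markers given above were also high in Control 3, and their part in these results was not tested. In Control 4 and PCOS-MV 3 the summed epithelial markers were at 17.7 and 32.4 FPKM.

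**Figure D3:**
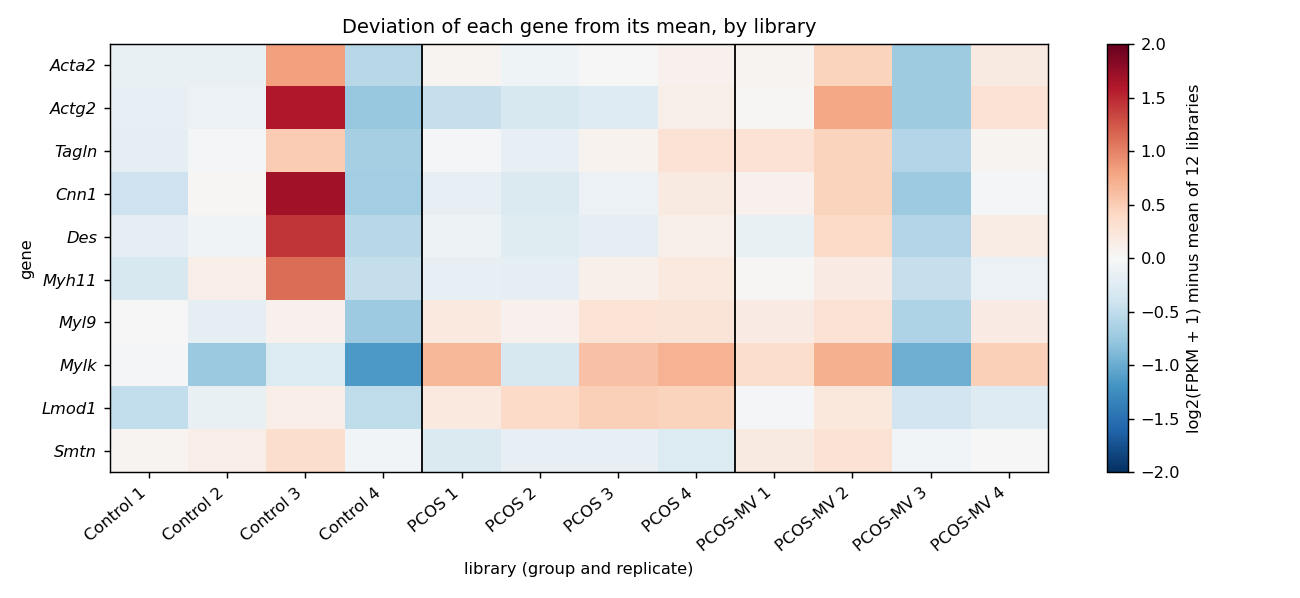
Deviation of each gene (rows) from its own mean over the 12 libraries (columns, by group and replicate), in units of log2(FPKM + 1), red for above and blue for below the mean. Control 3 is red for most genes, Control 4 and PCOS-MV 3 are blue in every row or nearly white for Smtn, and the 4 PCOS columns are pale except for Mylk and Lmod1.

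Ratios between members within a library do not depend on how the library was scaled. Actg2 stood at 0.194 ± 0.0685 of Acta2 in Control, 0.143 ± 0.0235 in PCOS and 0.182 ± 0.0237 in PCOS-MV. Des stood at 0.189 ± 0.0465, 0.152 ± 0.0107 and 0.161 ± 0.0146 of Acta2 in the same order, and Myh11 at 0.417 ± 0.0617, 0.377 ± 0.0424 and 0.362 ± 0.0684. In Control 3, Actg2 stood at 0.295 of Acta2, against 0.144 to 0.171 in the other controls. Des stood there at 0.258 of Acta2, against 0.160 to 0.174. That rat raised the Control means of these ratios of Actg2 and Des. None of the 9 comparisons passed after adjustment (exact two-sided permutation tests, smallest adjusted p = 0.386 over the 9). With 4 rats a group the smallest raw p is 0.0286, so a single ratio that separated the groups fully could not have passed this adjustment, and the tests say little about a change in these ratios.

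Of the 9 tested transcription regulators of smooth muscle genes, 1 rose and 1 fell in PCOS against Control, and 1 rose and 1 fell in PCOS-MV against PCOS. This was 22.2% in each comparison, against 27.4% and 25.7% of all genes tested. The counts of the following lists stand beside the same shares of all genes. Myocd, myocardin, the coactivator of serum response factor, was at 6.29, 8.67, 8.78 and 9.74 FPKM in the controls, 23.1, 19.1, 18.4 and 17.9 FPKM in PCOS and 6.80, 10.9, 8.96 and 7.93 FPKM in PCOS-MV. All PCOS values lay above all values of the other groups. Myocd rose by 1.15 ± 0.13 (SE, log2, adjusted p = 0.000415) in PCOS and fell in PCOS-MV against PCOS (-1.11, adjusted p = 0.000933). Prrx1, a homeobox factor of mesenchymal cells, fell by 0.46 in PCOS (adjusted p = 0.0197) and was 0.46 higher in PCOS-MV than in PCOS (adjusted p = 0.0158). The response factor gene Srf itself was at 16.1, 15.2 and 15.8 FPKM on average in Control, PCOS and PCOS-MV and was not called.

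Among 19 actin-binding, thin filament and dense body genes, 1 rose and 5 fell in PCOS, and 7 rose and 1 fell in PCOS-MV against PCOS. Their median log2 fold change was -0.18 in the first comparison and 0.26 in the second, beside -0.03 and 0.03 over all genes. Pdlim3, an actin-associated LIM protein of muscle, was the 1 that rose, from 11.3 ± 1.76 FPKM in Control to 49.0 ± 13.7 FPKM in PCOS (2.0 on the log2 scale, adjusted p = 0.000155), and it was at 11.5 ± 1.43 FPKM in PCOS-MV (-1.96 from PCOS, adjusted p = 0.000294). Itga8, the alpha 8 integrin subunit of smooth muscle and mesangial cells, fell from 20.4 ± 6.87 to 5.36 ± 1.38 FPKM (-1.73, adjusted p = 0.000791) and was at 19.5 ± 5.95 FPKM in PCOS-MV. Vcl, the vinculin of dense plaques and focal adhesions, fell from 56.2 ± 3.91 to 38.3 ± 2.93 FPKM (-0.54, adjusted p = 0.00154) and was at 61.4 ± 7.96 FPKM in PCOS-MV (0.66 above PCOS, adjusted p = 0.00294). Cald1, Pdlim7 and Fermt2 were the other 3 that fell in PCOS, with Fermt2 not called without Control 3 (adjusted p = 0.0558). These are also genes of other adherent cells of the ovary.

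Of 13 genes that set myosin phosphorylation, 1 rose and 1 fell in PCOS and 1 rose and 1 fell in PCOS-MV against PCOS. Ppp1r14a, which encodes the phosphatase inhibitor CPI-17, was at 7.0, 5.68, 6.57 and 6.11 FPKM in the controls, 18.7, 13.8, 14.2 and 14.7 FPKM in PCOS and 7.95, 9.14, 6.23 and 10.1 FPKM in PCOS-MV. The PCOS rats stood apart from both other groups (1.15 against Control, adjusted p = 0.000138, and -0.81 for PCOS-MV against PCOS, adjusted p = 0.00536). Ppp1cb, the catalytic subunit of myosin phosphatase, stood at 119 to 146 FPKM in the controls and 95 to 106 FPKM in PCOS, where it fell (-0.35, adjusted p = 0.0144).

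Of 13 tested channel and calcium store genes, 3 rose and 4 fell in PCOS, and 1 rose and 3 fell in PCOS-MV against PCOS. Cacnb2, a beta subunit of voltage-gated calcium channels, rose from 4.14 ± 0.368 to 15.1 ± 2.93 FPKM (1.64, adjusted p = 5.48e-05), and was at 4.50 ± 1.07 FPKM in PCOS-MV (-1.56 from PCOS, adjusted p = 0.000563). Kcnma1, the large-conductance calcium-activated potassium channel, rose from 3.17 ± 1.40 to 5.99 ± 0.568 FPKM (0.81, adjusted p = 0.0285) and stood at 1.30 ± 0.595 FPKM in PCOS-MV. Kcnj8, a pore subunit of the ATP-sensitive potassium channel of vascular mural cells, fell from 13.3 ± 1.13 to 4.56 ± 0.253 FPKM (-1.36, adjusted p = 1.55e-05) and was at 12.3 ± 0.286 FPKM in PCOS-MV (1.26 above PCOS). Cacna1c, the pore of the L-type calcium channel, was at 3.38, 2.54 and 2.46 FPKM on average and was not called.

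Of 10 tested receptor genes of contractile agonists and relaxants, 5 fell in PCOS and none rose, and 3 rose and 1 fell in PCOS-MV against PCOS. Ptgfr, the prostaglandin F receptor, which luteal cells also carry, fell from 97.0 ± 51.2 to 21.0 ± 8.44 FPKM (-2.07, adjusted p = 0.00683) and was at 91.2 ± 56.0 FPKM in PCOS-MV (1.97, adjusted p = 0.00859). Gucy1b1, a subunit of the nitric oxide receptor, fell from 8.54 ± 1.82 to 4.00 ± 0.264 FPKM (-0.91, adjusted p = 0.0021) and was at 7.21 ± 1.13 FPKM in PCOS-MV. Oxtr, the oxytocin receptor, was at 0.358, 0.287, 5.07 and 0.252 FPKM in the controls and 7.18, 3.25, 1.30 and 3.42 FPKM in PCOS, with Control 3 inside the PCOS range. It was not called with all controls (1.18, adjusted p = 0.157) and was called without Control 3 (1.74, adjusted p = 0.00945). In PCOS-MV it was listed at 0 to 0.603 FPKM, lower than in PCOS (adjusted p = 0.00537).

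**Figure D4:**
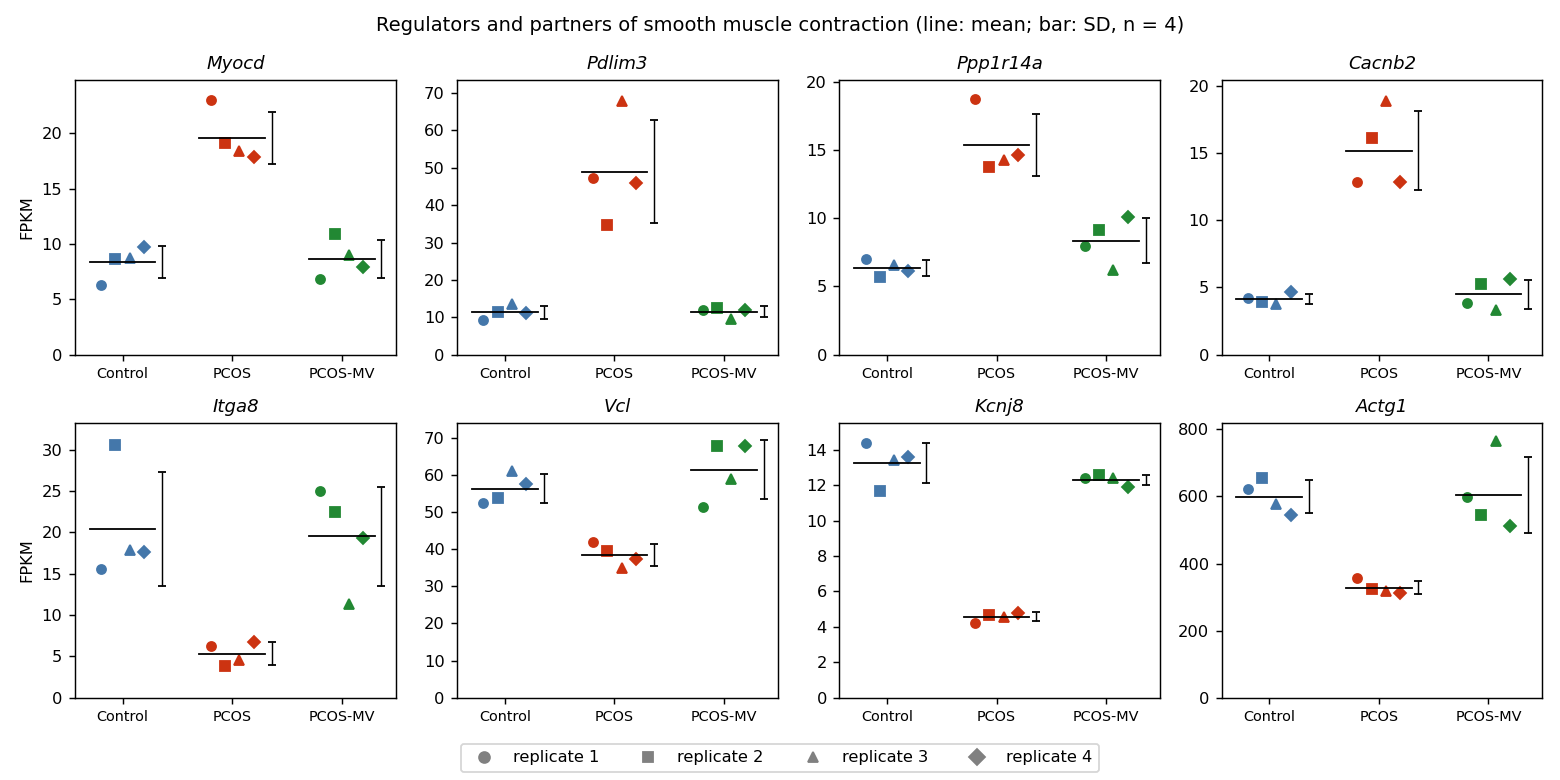
Level in FPKM (vertical axes, starting at 0) of 8 regulators and partners of smooth muscle contraction in the 4 libraries of each group, with marker shapes for the replicate, a line for the mean and a bar for the SD. Myocd, Pdlim3, Ppp1r14a and Cacnb2 are higher in all PCOS libraries than in any other library, and Itga8, Vcl, Kcnj8 and Actg1 are lower.

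The cytoplasmic actin and nonmuscle myosin genes, which are used by most cells, gave 1 gene that rose and 3 that fell among 8 in PCOS, and 2 that rose and 1 that fell in PCOS-MV against PCOS. Actg1, the cytoplasmic gamma actin, fell from 600 ± 48.5 to 328 ± 19.4 FPKM (-0.87, adjusted p = 0.000232) and was at 605 ± 112 FPKM in PCOS-MV (0.86, adjusted p = 0.00244). Its smooth muscle relative Actg2 was not called, but the 95% interval of Actg2 in PCOS against Control (-1.37 to 0.63) holds the value of Actg1. That interval includes Control 3. Without Control 3, Actg2 stood at 0.12 ± 0.19 and Actg1 at -0.88 ± 0.10 (log2 fold change ± SE). The difference between these actin genes was not tested. Myl12a, a nonmuscle regulatory light chain, fell in PCOS (-0.60, adjusted p = 0.000986), and Myl6, the essential light chain that smooth muscle and nonmuscle myosin share, rose from 166 ± 42.7 to 247 ± 38.6 FPKM (0.59, adjusted p = 0.0481), a call lost without Control 3 (adjusted p = 0.0784). The third of those called lower, Myh9, was listed at 0 in all 4 PCOS libraries and also in Control 3 and PCOS-MV 1, and since nearly all cells use it the listed 0 may be a failed estimate. Among the skeletal and cardiac muscle markers, 2 of 4 tested rose in PCOS and none fell, and 2 fell and none rose in PCOS-MV against PCOS. They were Myh6, at 3.21 ± 2.44, 46.9 ± 12.8 and 3.58 ± 4.30 FPKM in Control, PCOS and PCOS-MV (3.68 and -3.85 on the log2 scale, adjusted p = 0.000429 and 0.00287), and its near-identical neighbour Myh7 at 0.200, 2.83 and 0.162 FPKM. The skeletal marker Ckm was below 1 FPKM on average in each group, and reads shared between the 2 heavy chain genes cannot be told apart.

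Markers of cells that share the vessel wall were counted in the same fit. Of 10 pericyte markers, several of which arterial smooth muscle also expresses, 7 fell and none rose in PCOS against Control, and 5 rose and none fell in PCOS-MV against PCOS. Their summed level was 194 to 210 FPKM in Control, 122 to 164 FPKM in PCOS and 164 to 189 FPKM in PCOS-MV. Notch3, a receptor of mural cells, fell from 21.4 ± 1.76 to 8.61 ± 1.02 FPKM (-1.22, adjusted p = 5.46e-05) and was at 16.2 ± 2.97 FPKM in PCOS-MV. Mcam fell from 33.4 ± 4.53 to 16.8 ± 1.16 FPKM (-0.94, adjusted p = 0.000299). Of 9 endothelial markers, 6 fell and 1 rose in PCOS and 4 rose and 1 fell in PCOS-MV against PCOS, at summed levels of 164 to 206, 116 to 153 and 146 to 189 FPKM. Kdr, the main receptor of vascular endothelial growth factor, fell by 1.15, Esam by 1.05 and Cdh5 by 0.85 on the log2 scale. The part of these cells in the results of Myocd, Lmod1 and Smtn was not tested.

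Of 10 stromal fibroblast markers, 2 rose and 5 fell in PCOS and 4 rose and 3 fell in PCOS-MV against PCOS, at summed levels of 949 to 1515, 855 to 948 and 848 to 1475 FPKM in the 3 groups. Pdgfra rose from 37.0 ± 2.07 to 65.7 ± 1.13 FPKM, whereas Fbln1 fell from 34.3 ± 6.02 to 14.7 ± 1.08 FPKM and Col3a1 from 304 ± 90.3 to 142 ± 12.4 FPKM. All 5 theca markers were called in PCOS, 4 higher and 1 lower, with Insl3 at 5.70 ± 3.39 FPKM in Control, 1032 ± 139 FPKM in PCOS and 7.89 ± 4.45 FPKM in PCOS-MV, and 4 fell and none rose in PCOS-MV against PCOS. Of 8 granulosa markers, 4 rose and none fell in PCOS, and 3 fell and none rose in PCOS-MV. Of 7 tested luteal markers, 1 rose and 4 fell in PCOS, and 3 rose and 1 fell in PCOS-MV. The called theca and granulosa markers mostly moved in the direction of Myocd, Pdlim3 and Lmod1 in both comparisons. The called luteal markers mostly moved the other way. The lists share some genes, so their counts are not separate. Lhcgr was counted among both the theca and the luteal markers. Ptgfr was counted among the receptors and the luteal markers, and Kcnj8 and Abcc9 among the channels and the pericyte markers. The part of all these markers in the values of Myocd, Pdlim3 and Lmod1 was not tested.

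Of 5 tested oviduct and ciliated epithelium markers, 1 rose and none fell in PCOS, and 2 fell and none rose in PCOS-MV against PCOS. The 1 that rose was Cdh1, at 23.3 to 88.4 FPKM in PCOS, which follicle cells also express. Of 4 tested adipocyte markers, all 4 fell in PCOS and 1 rose in PCOS-MV against PCOS, at summed levels of 33.7 to 107, 15.7 to 28.2 and 18.4 to 48.2 FPKM. Of 5 red blood cell markers, none was called in PCOS against Control and 1 fell in PCOS-MV against PCOS. No gene of any of these lists was called in PCOS-MV against Control. Without Control 3, the counts in PCOS against Control were 1 higher and 2 lower for the regulators, 1 and 4 for the thin filament genes, 3 and 1 for the myosin phosphorylation genes, 1 and 3 for the receptors, 0 and 7 for the pericyte markers, 2 and 6 for the endothelial markers, 3 and 4 for the fibroblast markers, 4 and 1 for the granulosa markers and 0 and 3 for the adipocyte markers, where Cfd was no longer called (adjusted p = 0.0582). Myocd, Pdlim3 and Ppp1r14a then stood at log2 fold changes of 1.17, 2.08 and 1.16.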

How the data were processed

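Ovarian RNA of 12 rats was sequenced, 1 library per rat, and samples were grouped by their titles and treatments. The authors deposited FPKM values per gene. Their methods name HISAT2 as the aligner, while the submitters' processing notes name STAR 2.5.1b and HTSeq 0.6.0. The genome build is not given in the sources used here. The authors' columns of fold changes and p-values were not used. The table repeats each gene on its 26928 transcript lines, and 1 line per gene was kept. The 13430 genes whose mean reached 1 FPKM were tested on log2(FPKM + 1) with limma 3.58.1 (R 4.3.3, trend), 2 groups at a time, with Benjamini-Hochberg adjustment over all of them and a threshold of 0.05. The fit was tested on simulated data. Single genes and ratios were also tested by exact two-sided permutation. The 10 genes and all lists were chosen with earlier results of these data known. Of 171 listed symbols 163 were found. Named genes were all 10 members, up to 3 called genes per list with the smallest adjusted p, 8 genes most like the members, and others chosen after their values were seen (Srf, Cacna1c, Cald1, Pdlim7, Fermt2, Ckm, Krt8, Pax8, Myh9, Abcc9, Cfd, Lhcgr). Since the values keep no counts, no counting interval is given. Of the genes that set myosin phosphorylation, 1 is not reported here by name.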

Additional observations from a re-analysis of the deposited data

Results flagged for a closer look

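In the groups of 4 rats, 39 sets of values (the 10 genes and 3 ratios in each group) were searched for 1 rat lying apart from the rest. The search gave 5 such values, and chance alone would give about 1 in 20, or 1.95. In Control 3, Actg2 was at 90.1 FPKM (other controls 16.8 to 26.7), Cnn1 at 51.0 FPKM (9.08 to 15.6), Des at 78.8 FPKM (19.1 to 27.2), and the ratio of Des to Acta2 at 0.258 (0.160 to 0.174). These 4 come from 1 rat and are not independent of each other. In PCOS 2, Mylk was at 26.0 FPKM, with the other PCOS rats at 49.9 to 53.5 FPKM.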

How the results depend on the processing

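The count of contractile genes called was 3 in PCOS against Control and 2 in PCOS-MV against PCOS, and both were small enough for 1 rat to move them. Leaving out 1 rat in turn gave 1 to 4 genes in the first comparison and 0 to 1 in the second. The share of all genes called is given for the fit without Control 3 only (29.2%). The other leave-one-out counts and the block counts below are therefore not read as a result about these genes. A further requirement of a 2-fold change left 0 genes in both, with 907 and 751 of all genes tested. With the replicate numbers as a replicate block the counts were 3 and 1 (Smtn), and in PCOS-MV against Control the block left 0 genes of the whole table. The block was fitted only as an alternative, because no source says that a number marks a shared batch and the correlations did not all exceed 0.1: deviations of same-numbered rats correlated at -0.03 to 0.02 between PCOS and Control, -0.05 to 0.22 between PCOS-MV and Control and 0.04 to 0.17 between PCOS-MV and PCOS, where 3 of 4 exceeded 0.1 and each rat correlated best with its own number, a hint of pairing from the data. There the block ended the call of Lmod1 (adjusted p = 0.0571). Another pseudocount, no filter, 1 model over all 12 libraries, rescaling by median ratios and no variance trend kept the counts within 1 gene. Several genes near 0 difference changed sign when 1 rat was left out, none of them called. The log2 fold changes then ran, in PCOS against Control, for Acta2 from -0.17 to 0.30, Actg2 from -0.67 to 0.12, Myh11 from -0.32 to 0.21, Tagln from -0.054 to 0.34, Cnn1 from -0.52 to 0.26 and Des from -0.50 to 0.16. In PCOS-MV against PCOS they ran for Acta2 from -0.17 to 0.22, Myh11 from -0.17 to 0.032, Tagln from -0.13 to 0.22, Cnn1 from -0.13 to 0.26, Des from -0.083 to 0.24, Mylk from -0.50 to 0.12 and Myl9 from -0.30 to 0.00083, and Tagln was at -0.015 after rescaling. In PCOS-MV against Control they ran for Acta2 from -0.18 to 0.28, Actg2 from -0.34 to 0.44, Myh11 from -0.41 to 0.13, Tagln from -0.046 to 0.36, Cnn1 from -0.49 to 0.30, Des from -0.44 to 0.22 and Smtn from -0.083 to 0.059. Among the leave-one-out fits Myl9 in PCOS against Control was called only without Control 3. Of the ratio differences, none of which passed, Actg2 to Acta2 in PCOS-MV against Control (-0.04 with all rats on the log2 scale) and Myh11 to Acta2 in PCOS-MV against PCOS changed sign when 1 rat was left out, and the others kept their sign. The cause of these changes was not tested. FPKM keeps no read counts, so the 4 rats a group, not a known depth, set the precision given here.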

Other observations

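Outside the lists, the 8 genes whose log2(FPKM + 1) followed the mean deviation of the 10 contractile genes most closely over the 12 libraries, of 13285 genes compared, were Tgfb1i1 (Pearson r = 0.92), Dact3 (0.88), Scarf2 (0.88), Ptgfrn (0.86), Efna5 (0.86), Tp53rk (0.86), Crip1 (0.85) and Prxl2a (0.83). They were chosen for this likeness, so the values are a description, and the points share their library. Tgfb1i1, a LIM protein also known as Hic-5, was at 8.81 to 14.9 FPKM in Control, 10.9 to 12 FPKM in PCOS and 7.48 to 12.6 FPKM in PCOS-MV, highest in Control 3 and lowest in PCOS-MV 3. Crip1, a cysteine-rich LIM protein, was at 45.8 FPKM in Control 3 and at 9.95 to 20.1 FPKM in the other 11 libraries. None of the 8 was called in any of the 3 comparisons. The choice favoured this outcome, because the mean deviation they followed differed little between groups. It was -0.04 in Control, 0.04 in PCOS and 0.01 in PCOS-MV on average.

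Kcnj8 and Abcc9, which encode the pore and the regulatory subunit of the ATP-sensitive potassium channel of vascular mural cells, gave different values. Kcnj8 fell in PCOS, as described, while Abcc9 was at 26.6 FPKM in Control, 39.0 FPKM in PCOS and 32.7 FPKM in PCOS-MV on average (0.50 in PCOS against Control, adjusted p = 0.0997) and was not called. The difference between the 2 genes was not tested.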
